A study of Mus musculus with 11 samples.

Results

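The genes examined were 10 genes of vessel sprouting and Notch signalling in brain endothelium, taken by symbol from the 32285 genes in the count tables. They were the ligand and receptor pair Apln and Aplnr, the tip cell gene Esm1, the fenestral diaphragm gene Plvap, the surface sialomucin Cd34, the Notch ligands Dll4 and Jag1, the receptors Notch1 and Notch4, and the Notch target Hey1. All 10 passed the filter on low counts in endothelial cells, where unique molecular identifiers (UMIs, counts of captured RNA molecules) were summed per library. Right brain tissue of 11 mice had been dissociated and profiled by droplet single-cell RNA sequencing, with 1 library per mouse. The wild-type (WT) mice were male C57BL/6 animals. The Lrg1-/- mice carried a whole-body deletion of Lrg1, which encodes a secreted leucine-rich glycoprotein, and the study's methods do not call the WT mice their littermates. Mice of each genotype had either a sham operation or middle cerebral artery occlusion followed by reperfusion (MCAO/R), a filament model of ischemic stroke. This gave 3 sham + WT, 3 sham + Lrg1-/-, 2 MCAO/R + WT and 3 MCAO/R + Lrg1-/- libraries. The labels give neither the age of the mice nor the reperfusion time. The study's methods give a higher age for the Lrg1-/- mice than for the WT mice and a backcross to the C57BL/6N substrain, and these cannot be told apart from the genotype.

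In a growing vessel a tip cell leads the sprout and the stalk cells behind it form the tube. The tip cell displays Dll4, which activates Notch receptors on its neighbours, and cleaved Notch then turns on targets such as Hey1 and restrains sprouting, while Jag1 can compete with Dll4 for the receptors. In resting brain vessels the same pathway marks arterial identity, whereas Plvap is normally silenced where the blood-brain barrier is formed and is expressed in the fenestrated vessels of the choroid plexus.

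After filtering and doublet removal 124491 of 155804 barcodes were kept, from libraries of 37159497 to 171813031 UMIs. Any pair of libraries shared at most 1.146% of the barcodes of the smaller one. Endothelial cells were called by their markers, and 17829 cells entered the sums, with 358 to 3012 cells per library and 4165109 UMIs in the smallest sum. Of the markers used for the name, Cldn5 reached 4106 CPM (counts relative to the total of the summed cells, on the same scale in every library) in these cells against 135 in the other named cell types, and Pecam1 903 against 31.4. These levels follow from the choice of the cells and are given as a description. A further 3564 cells in sub-clusters that also passed neutrophil (5) or choroid plexus epithelial markers (6) were set apart after they were seen. They were uneven between the genotypes. Sub-cluster 6 held 37, 17 and 37 cells in sham + WT and 280, 368 and 188 in sham + Lrg1-/-. After MCAO/R it held 49 and 7 in WT and 165, 435 and 108 in Lrg1-/-. Sub-cluster 5 held 697 cells in sham + WT replicate 1, 648 in MCAO/R + Lrg1-/- replicate 5 and 17 to 112 in each other library. Fits with the set-apart cells included are given as an alternative. Lrg1 matched the labels. Its endothelial level was 7.75, 25.5 and 7.62 CPM in the sham + WT libraries and 445 and 543 CPM in the MCAO/R + WT libraries, and no Lrg1 UMI was found in any of the 6 Lrg1-/- libraries, where a count of 0 allows at most 0.0879 to 0.720 CPM. Transcripts of other cells differed between the genotypes within the endothelial sums. The summed level of 4 haemoglobin genes was 650 to 1602 CPM in the WT libraries and 18597 to 34654 CPM in the Lrg1-/- libraries, and that of 3 choroid plexus epithelial genes was 119 to 522 CPM against 1967 to 4620 CPM. The summed level of 9 dissociation response genes was 29672 to 31735 CPM in sham + WT, 26759 to 27320 CPM in sham + Lrg1-/-, 22217 to 23533 CPM in MCAO/R + WT and 13791 to 16366 CPM in MCAO/R + Lrg1-/-. The part of these transcripts in the differences between the genotypes was not tested, apart from the alternative without cells rich in haemoglobin.

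The endothelial cells fell into 8 analysed sub-clusters, of which 4 could be named from markers: capillary-like (3698 cells), arterial-like (2145 cells), venous-like (1278 cells) and choroid plexus fenestrated-like (196 cells). Of the others, sub-cluster 0 (4811 cells) was led by genes such as Slc22a8 and Lrrn3, sub-cluster 2 (2201 cells) by Inhbb, Kit and Adamts9, and sub-cluster 4 (1876 cells) by Egr3 and Nr4a3, while sub-cluster 7 (1624 cells) had few UMIs per cell. Capillary markers were the closest match of sub-clusters 0 and 4 too (mean log2 fold 0.79 and 0.19, against 0.73 in the capillary-like cells). Too few of them passed there for a name, so the capillary-like cells need not be all capillary cells. The 10 genes were left out of the clustering. They were unevenly placed along the vessel tree. In the sham + WT group the arterial-like cells held 54.4% of the endothelial Hey1 UMIs, 38.1% of the Jag1 UMIs and 33.6% of the Dll4 UMIs, and the venous-like cells held 35.7% of the Aplnr UMIs. The choroid plexus fenestrated-like cells held 96.7% of the Plvap UMIs (4383 of 4531) and 98.1% of the Esm1 UMIs (1060 of 1080) in that group, and 71.3% to 96.2% and 84.9% to 93.1% in the other 3 groups. The shares of the sub-clusters, which rest on the same genes as the clustering and are given as a description, stood apart between the genotypes for some sub-clusters. The capillary-like cells were 27.822% to 31.088% of the endothelial cells in sham + WT and 11.577% to 12.5% in sham + Lrg1-/-, and 24.373% to 28.548% and 2.523% to 4.749% after MCAO/R. Sub-cluster 0 was 24.42% to 28.911% in sham + WT against 38.718% to 41.906% in sham + Lrg1-/-, and sub-cluster 4 was 15.881% to 17.165% against 8.6% to 10.348%. After MCAO/R sub-cluster 0 was 17.057% to 35.174% in WT and 17.895% to 32.649% in Lrg1-/- mice. Sub-cluster 7, with few UMIs per cell, was 5.423% to 8.119% in sham + WT against 11.373% to 15.641% in sham + Lrg1-/-. After MCAO/R it was 7.607% to 8.097% against 11.487% to 22.346%. The part of these shares in the differences between the genotypes in whole endothelium was not tested. The place of the Apln UMIs differed between the groups. Of the Apln UMIs in sham + WT, 42.5% were in the capillary-like cells and 7.08% (8 of 113) in sub-cluster 2, which held 84.5% of them in MCAO/R + WT (278 of 329) and 91.7% in MCAO/R + Lrg1-/- (2578 of 2810). Of the Dll4 UMIs in MCAO/R + Lrg1-/-, 52.0% were in sub-cluster 2 when the libraries were pooled. Outside it lay 173 of 275, 1295 of 2849 and 153 of 256 Dll4 UMIs in replicates 1, 2 and 5. Sub-cluster 2 held 18.715% to 41.335% of the endothelial cells of that group, and its cells had a median of 9985 UMIs. Its share of all UMIs was not set beside these Dll4 shares, so they are no result about Dll4.

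**Figure D1:**
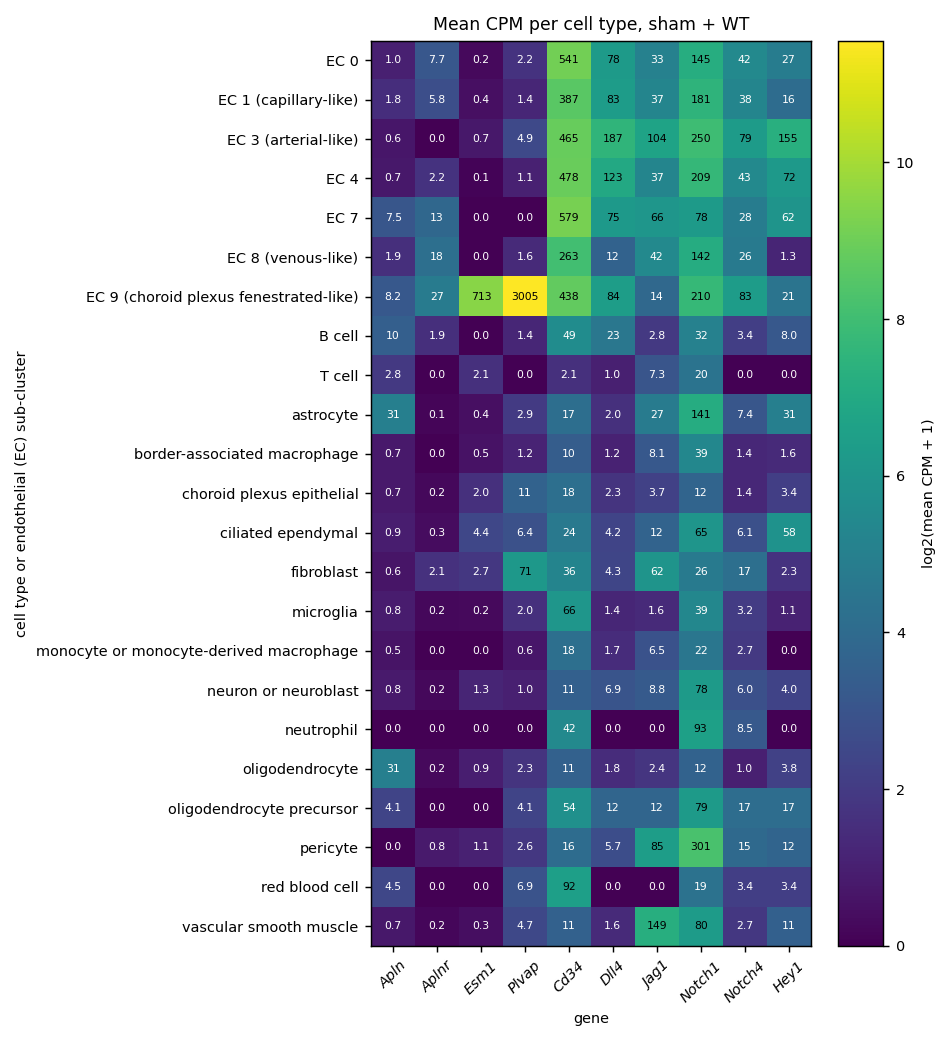
Mean level of the 10 genes in the sham + WT group (CPM, printed in each cell, colour on a log2 scale) for the endothelial sub-clusters with at least 20 cells in a library, named EC, and the other named cell types. Plvap and Esm1 were at 3005 and 713 CPM in the choroid plexus fenestrated-like cells, Hey1 was at 155 CPM in the arterial-like cells, and Apln was at 31 CPM in astrocytes and oligodendrocytes.

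Outside endothelium the genes had their own sites in the sham + WT libraries. Jag1 was at 132 to 160 CPM in vascular smooth muscle cells, and Notch1 was at 268 to 319 CPM in pericytes. Apln was at 26.5 to 33.3 CPM in astrocytes and at 28.2 to 33.9 CPM in oligodendrocytes, against 1.34 to 2.10 CPM in the endothelial cells of the same group. As a description over 23 cell types and sub-clusters of the sham + WT group, which share their libraries, the gene with the profile most like that of Dll4 was Mmrn2 (Pearson r 0.92). It was Pcdh1 for Notch1 (0.84), Ltbp4 for Notch4 (0.93), Sema3g for Hey1 (0.79), Tpm1 for Jag1 (0.88) and Kank3 for Cd34 (0.95). It was Omg for Apln (0.81), Fmo2 for Aplnr (0.91), Gm44127 for Esm1 (0.96) and Rbp7 for Plvap (0.94).

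The comparison after MCAO/R asks how the injury changed these genes in each genotype, and the comparison of genotypes asks how far the loss of Lrg1 went with another level. Differences were tested by edgeR's quasi-likelihood test on the summed UMIs, and a gene was called where its Benjamini-Hochberg adjusted p over all 16140 genes tested was under 0.05 and its log2 fold change exceeded 0.36 in size. In WT endothelium 8 of the 10 genes were called after MCAO/R, 3 higher and 5 lower, beside 21.6% of all genes tested (9.37% higher and 12.2% lower). In Lrg1-/- endothelium 5 were called, 3 higher and 2 lower, beside 22.2% (10.9% higher and 11.3% lower). Between the MCAO/R groups 3 were called, 2 higher and 1 lower in Lrg1-/- than in WT mice, beside 26.4% (14.2% higher and 12.2% lower). Between the sham groups 5 were called, 1 higher and 4 lower in Lrg1-/-, beside 15.7% (7.18% higher and 8.49% lower). The change after MCAO/R itself differed between the genotypes for 4 of the 10 genes, 3 with a larger log2 value in Lrg1-/- and 1 with a smaller one, beside 3.22% of all genes (1.7% and 1.51%). The median log2 fold change of the 10 genes was −0.51 after MCAO/R in WT and 0.04 in Lrg1-/-, and −0.01 and −0.02 over all genes. These comparisons share groups, so their calls are not independent of each other.

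**Figure D2:**
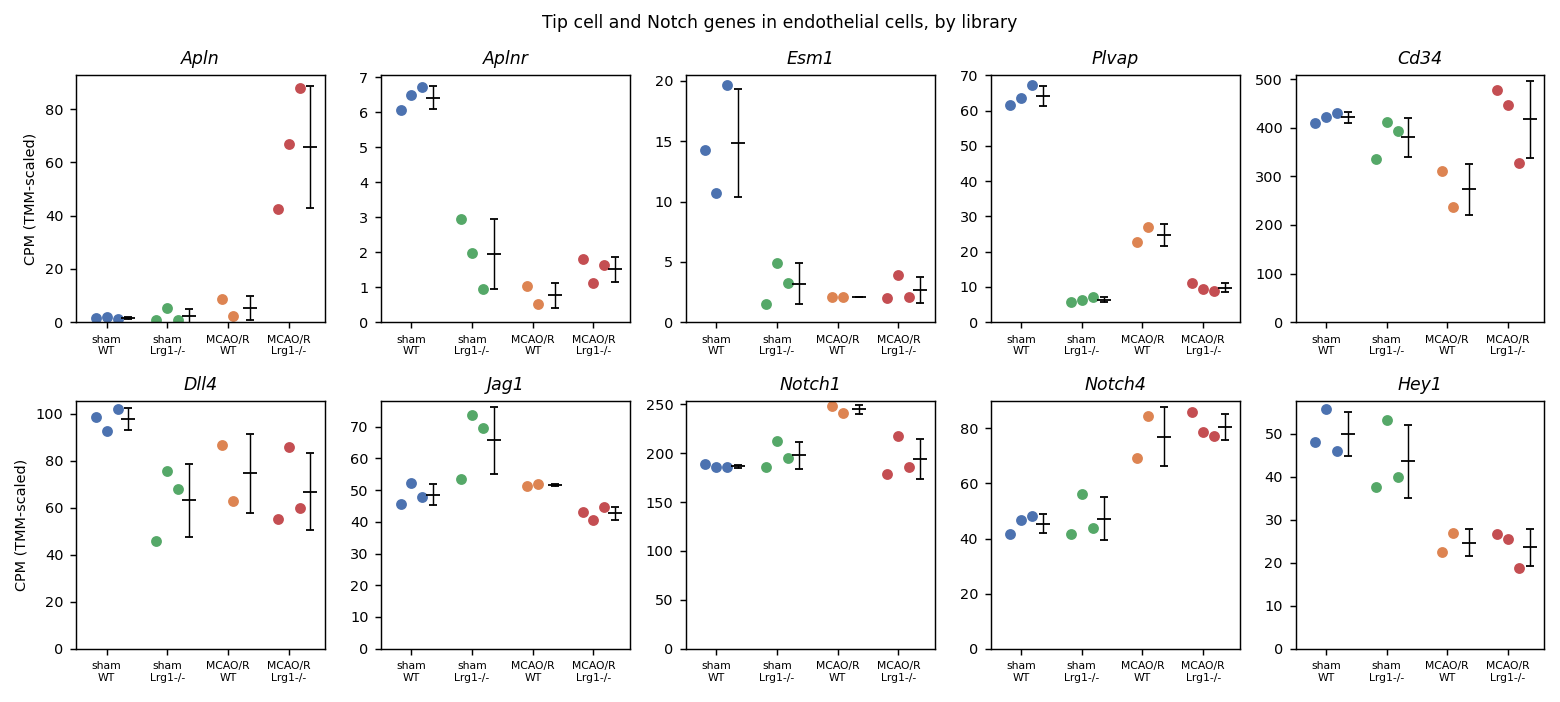
Level of each gene in the summed endothelial cells of each library (CPM after TMM scaling, linear axis from 0) in the 4 groups; points are libraries, and the black mark and bar are the mean and SD of the group. The 3 MCAO/R + Lrg1-/- libraries lie above every other library for Apln, and the 3 sham + WT libraries lie above every other library for Plvap, Esm1 and Aplnr.

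Apln encodes apelin, a peptide ligand that sprouting endothelial cells make (gene at chrX:48025146-48034853, minus strand, GRCm38). Apln rose after MCAO/R in Lrg1-/- endothelium and was higher there than in WT endothelium after MCAO/R. Its level was 1.45, 2.10 and 1.34 CPM in the sham + WT libraries, 0.735, 5.4 and 0.937 CPM in sham + Lrg1-/-, 8.60 and 2.21 CPM in MCAO/R + WT, and 42.6, 66.8 and 88.0 CPM in MCAO/R + Lrg1-/-. All 3 MCAO/R + Lrg1-/- libraries were above the other 8, and MCAO/R + WT replicate 2 lay close to the sham libraries. The rise after MCAO/R in Lrg1-/- mice was 24.3-fold (log2 4.60 ± 0.58 SE, adjusted p = 2.31e-04, n = 3 and 3 libraries). The level after MCAO/R was 11.8-fold higher in Lrg1-/- than in WT mice (log2 3.57 ± 0.56, adjusted p = 6.01e-04), and no omitted library ended either call. The size depended on single libraries. Without sham + Lrg1-/- replicate 2 the rise in Lrg1-/- mice was 6.33 on the log2 scale (4.12 to 4.87 without any other library). The log2 difference between the MCAO/R groups was 4.88 without MCAO/R + WT replicate 1 and 2.92 without MCAO/R + WT replicate 2 (3.30 to 3.78 without any other library). In WT mice Apln rose by 1.77 ± 0.58 (log2, adjusted p = 0.0442). That call was lost without any 1 of the sham + WT libraries (log2 1.63 to 2.01), without MCAO/R + Lrg1-/- replicate 2 (1.77) and without MCAO/R + WT replicate 1, where the log2 value was 0.44. It was lost too by DESeq2 (1.77) and in cells thinned to 1000 UMIs (1.61), and over all 25 alternatives it was kept in 14. The difference between the 2 rises was not called (log2 2.83 ± 0.86, adjusted p = 0.0981), but it was called without sham + Lrg1-/- replicate 2 (4.57) and without MCAO/R + WT replicate 1 (4.15).

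After MCAO/R most endothelial Apln transcripts were in sub-cluster 2, whose leading genes include Kit and the matrix protease gene Adamts9. This sub-cluster held 4, 2 and 4 cells of the sham + WT libraries, 1, 2 and 2 cells of sham + Lrg1-/-, 652 and 117 cells of MCAO/R + WT, and 67, 1245 and 105 cells of MCAO/R + Lrg1-/-. Its share of the endothelial cells was 4.785% to 26.798% in MCAO/R + WT and 18.715% to 41.335% in MCAO/R + Lrg1-/-, and no sham library exceeded 0.513%. Within sub-cluster 2 Apln was at 25.6 and 25.4 CPM in the MCAO/R + WT libraries and at 164, 128 and 313 CPM in the MCAO/R + Lrg1-/- libraries. These groups did not overlap, and the log2 difference was 2.91 ± 0.38 (adjusted p = 0.00698, beside 8.61% of all genes tested in sub-cluster 2). In sham + Lrg1-/- replicate 2, the sham library with the most Apln, 46 of 52 Apln UMIs came from its 2 cells of this sub-cluster.

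Without sub-cluster 2, an alternative added after the data were seen, Apln no longer rose in WT mice (log2 −0.42, adjusted p = 0.557). The remaining endothelial cells held 1.34 and 0.91 CPM of Apln in MCAO/R + WT and 2.84, 10.9 and 6.93 CPM in MCAO/R + Lrg1-/-. The rise in Lrg1-/- mice was 3.34 there, the difference between the genotypes after MCAO/R was 2.72, and the difference between the rises was 3.75 (adjusted p = 0.0101), all called. Apln was also higher in Lrg1-/- than in WT mice after MCAO/R within the arterial-like cells (log2 2.93 ± 0.98, adjusted p = 0.043, beside 20.8% of genes) and the venous-like cells (3.13 ± 0.61, adjusted p = 0.00349, beside 17.2%). In the venous-like cells it rose after MCAO/R in Lrg1-/- mice by 3.97 ± 0.88 (adjusted p = 0.0062, beside 16.9%). The levels in the arterial-like and venous-like cells were low, at 2.92 to 4.48 CPM and 2.24 to 14.8 CPM in the MCAO/R + Lrg1-/- libraries. In sub-cluster 7, which had few UMIs per cell, Apln rose in Lrg1-/- mice by 3.74 ± 0.99 (adjusted p = 0.0267, beside 6.87%). Apln was also called at low levels in cell types outside endothelium, as given below. The part of Apln RNA from cells of sub-cluster 2 in the calls outside it was not tested.

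The share of endothelial cells with an Apln UMI was 1.29% to 1.44% in sham + WT, 0.615% to 0.772% in sham + Lrg1-/-, 1.27% to 3.45% in MCAO/R + WT and 7.82% to 13.2% in MCAO/R + Lrg1-/-. With every cell thinned to 1000 UMIs the last 2 ranges were 0.205% to 0.493% and 2.23% to 4.48%. In microglia, where Apln was at 0.355 to 3.83 CPM over the 11 libraries, the shares in MCAO/R + Lrg1-/- were 1.69% to 2.87% before thinning and at most 0.337% after it. The median UMIs per cell in that group were 5298 to 10316 in endothelium and 6376 to 11242 in microglia. Cells with both an Apln and an Esm1 UMI numbered at most 2 in any library. Cells with an Esm1 UMI numbered at most 42, too few to show whether the 2 genes mark separate cells.

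**Figure D3:**
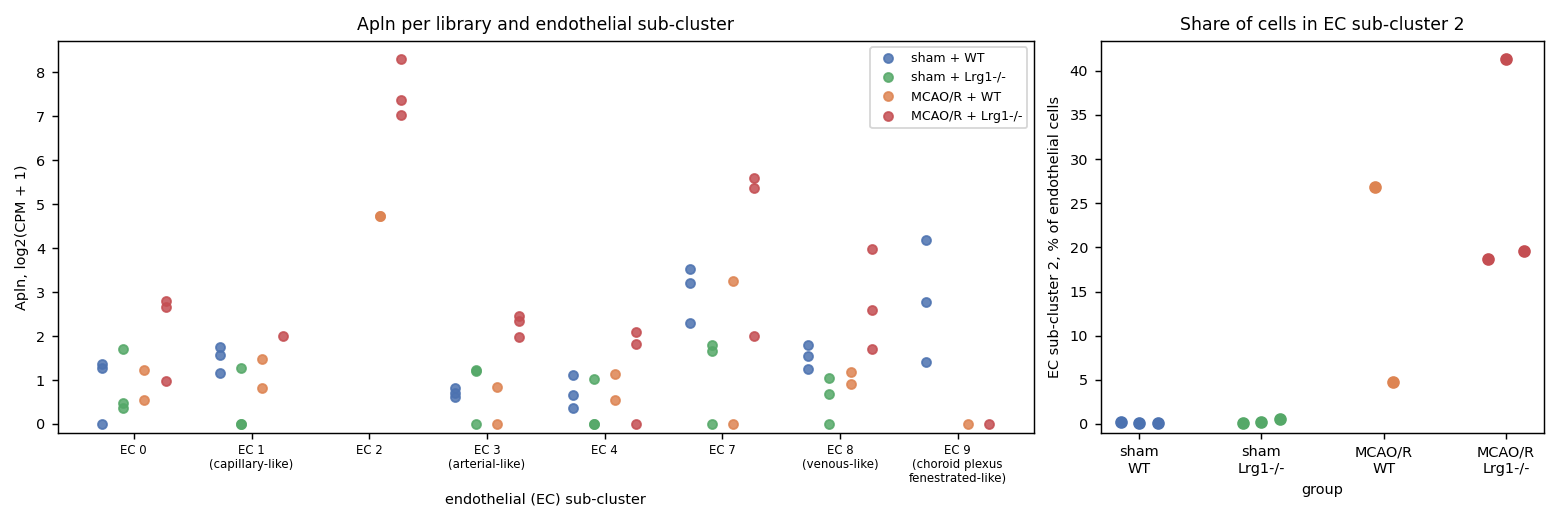
Left, Apln per library in each endothelial (EC) sub-cluster, as log2(CPM + 1), where a library has at least 20 cells of the sub-cluster; right, the percent of endothelial cells in sub-cluster 2 per library. Apln was at 128 to 313 CPM in sub-cluster 2 of the MCAO/R + Lrg1-/- libraries and at 25.4 and 25.6 CPM in that of the MCAO/R + WT libraries, and the sham libraries had at most 0.513% of their cells in it.

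The promoter of Apln is shown because Apln had the largest rise among the 10 genes, and that of Notch4 because Notch4 rose after MCAO/R in both genotypes. Both sequences are from RefSeq (GRCm38.p6) and run from 250 bases before the start to 50 bases after it, at chrX:48034804-48035103 (minus strand) for Apln and chr17:34564045-34564344 (plus strand) for Notch4, with motif matches in capitals.
Apln: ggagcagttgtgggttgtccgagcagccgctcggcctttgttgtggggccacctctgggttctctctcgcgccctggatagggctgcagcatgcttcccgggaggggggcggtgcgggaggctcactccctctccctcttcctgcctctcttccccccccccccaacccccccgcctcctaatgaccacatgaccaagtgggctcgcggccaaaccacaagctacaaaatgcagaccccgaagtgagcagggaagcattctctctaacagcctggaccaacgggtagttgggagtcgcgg
Notch4: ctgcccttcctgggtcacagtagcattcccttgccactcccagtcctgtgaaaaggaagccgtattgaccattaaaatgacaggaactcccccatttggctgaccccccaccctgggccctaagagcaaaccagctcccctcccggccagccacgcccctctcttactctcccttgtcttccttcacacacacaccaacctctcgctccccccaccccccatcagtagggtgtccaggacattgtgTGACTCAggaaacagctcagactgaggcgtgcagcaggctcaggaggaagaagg
The table held promoters for 7 of the 10 genes, without Aplnr, Plvap and Hey1. On both strands of the 7, neither ACGTG, the core of the hypoxia response element, nor TGGGAA, the core of the site bound by the Notch partner RBPJ, had a match, while 19.62% and 25.56% of all 32851 promoters of this length had one. The AP-1 site TGACTCA, searched after the sequences were seen and overlapping neither of the others, had 1 match, in Notch4, and 5.2% of all promoters had one. These are letter matches and were not tested as binding sites.

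Aplnr encodes the apelin receptor (chr2:85136225-85139923, plus strand), which veins express. Aplnr fell after MCAO/R in WT endothelium and was lower in Lrg1-/- than in WT endothelium after the sham operation. It was at 6.05, 6.48 and 6.73 CPM in sham + WT, 2.94, 1.97 and 0.937 CPM in sham + Lrg1-/-, 1.02 and 0.51 CPM in MCAO/R + WT, and 1.80, 1.11 and 1.63 CPM in MCAO/R + Lrg1-/-. The sham + WT libraries were above all others, the sham + Lrg1-/- group overlapped both MCAO/R groups, and the 2 MCAO/R groups did not overlap each other. The decrease in WT mice was 8.10-fold (log2 −3.02 ± 0.36, adjusted p = 7.25e-05), and the sham difference was −1.63 ± 0.32 (adjusted p = 0.00463). The call of the decrease was kept in all 24 alternatives and that of the sham difference in 23 of 24. In Lrg1-/- mice the change after MCAO/R was −0.61 ± 0.40 (adjusted p = 0.292), and it differed from that in WT mice by 2.41 ± 0.53 (adjusted p = 0.0284). The call of that last difference was kept in 15 of 23 alternatives. It was lost, among others, without any 1 sham + WT library, sham + Lrg1-/- replicate 2 or MCAO/R + WT replicate 2 (log2 2.01 to 2.47), by a per-cell marker rule (2.44; cells with UMIs of at least 3 endothelial markers and of more endothelial markers than of any other type's) and with the set-apart cells included (2.19). These were low counts, with 4 to 37 Aplnr UMIs per library in the MCAO/R + Lrg1-/- and sham + Lrg1-/- groups.

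Within the venous-like cells Aplnr was at 12.7, 18.5 and 21.7 CPM in sham + WT, 10.4, 3.20 and 2.39 CPM in sham + Lrg1-/-, 1.70 and 1.06 CPM in MCAO/R + WT, and 3.37, 1.98 and 6.72 CPM in MCAO/R + Lrg1-/-. The fall in WT mice was therefore also seen inside this vessel type, with a log2 change of −3.63 ± 0.50 (adjusted p = 9.11e-05, beside 20.2% of genes). Aplnr fell as well in sub-cluster 0 (−2.78 ± 0.74, adjusted p = 0.0127, beside 16.5%) and in the capillary-like cells (−2.73 ± 0.50, adjusted p = 6.28e-04, beside 20.5%). The lower sham level in Lrg1-/- mice was called in sub-cluster 0 (−2.0 ± 0.60, adjusted p = 0.0454, beside 9.12%).

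Esm1 encodes endocan, a proteoglycan of tip cells (chr13:113209659-113218098, plus strand), and Plvap the diaphragm protein of fenestrae and caveolae (chr8:71497765-71511752, minus strand). Both were highest in sham + WT endothelium. Plvap was at 61.7, 63.5 and 67.2 CPM in sham + WT, 5.64, 6.43 and 7.02 CPM in sham + Lrg1-/-, 22.7 and 27.0 CPM in MCAO/R + WT, and 11.2, 9.41 and 8.87 CPM in MCAO/R + Lrg1-/-. The 4 groups did not overlap for Plvap. Esm1 was at 14.3, 10.7 and 19.6 CPM in sham + WT, 1.47, 4.88 and 3.28 CPM in sham + Lrg1-/-, 2.08 CPM in both MCAO/R + WT libraries, and 2.0, 3.91 and 2.10 CPM in MCAO/R + Lrg1-/-. For Esm1 the sham + WT libraries stood above an overlapping rest.

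Plvap was 10.2-fold lower in Lrg1-/- than in WT endothelium after the sham operation (log2 −3.35 ± 0.13, adjusted p = 2.68e-08), and it fell after MCAO/R in WT mice (−1.37 ± 0.12, adjusted p = 6.08e-06). It rose after MCAO/R in Lrg1-/- mice (0.63 ± 0.14, adjusted p = 0.00742) and was lower there than in WT mice (−1.35 ± 0.13, adjusted p = 2.92e-05), the rise being lost with the set-apart cells included (0.16), in thinned cells (0.46), by the per-cell marker rule (0.52), with haemoglobin at most 1% of a cell's UMIs (0.58) and without the fenestrated-like cells (1.19). The 2 changes after MCAO/R differed by 2.0 ± 0.18 (adjusted p = 2.53e-04), a call lost by the per-cell marker rule (1.71), with the set-apart cells included (1.48) and without the fenestrated-like cells (2.39). Esm1 fell after MCAO/R in WT mice (−2.84 ± 0.38, adjusted p = 1.80e-04) and was lower in the sham + Lrg1-/- group (−2.19 ± 0.36, adjusted p = 0.0016). Its change in Lrg1-/- mice was −0.08 ± 0.41 (adjusted p = 0.909), and the changes differed by 2.75 ± 0.55 (adjusted p = 0.0192). The call of that difference was kept in 16 of 24 alternatives. It was lost, among others, without sham + WT replicate 3 (2.47), MCAO/R + WT replicate 2 (2.77) or MCAO/R + Lrg1-/- replicate 2 (2.17), in thinned cells (2.95), by the per-cell marker rule (2.46) and with the set-apart cells included (2.92).

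The number of choroid plexus fenestrated-like cells, which held most transcripts of both genes, also differed between the groups. It was 39, 35 and 44 cells in sham + WT, 5, 3 and 2 cells in sham + Lrg1-/-, 24 and 11 cells in MCAO/R + WT, and 4, 21 and 8 cells in MCAO/R + Lrg1-/-. This was 1.645% to 1.931% of the endothelial cells in sham + WT and 0.331% to 0.513% in sham + Lrg1-/-, and 0.45% to 0.986% and 0.697% to 1.493% in the MCAO/R groups of WT and Lrg1-/- mice. The share was highest in the sham + WT libraries, as were both genes. The shares of the 2 MCAO/R groups overlapped, and Plvap was lower in MCAO/R + Lrg1-/- than in MCAO/R + WT. The part of these shares in the endothelial values was not tested, apart from the fit without these cells given below. In the 5 libraries with at least 20 of these cells Plvap was at 3351, 2591 and 3073 CPM in sham + WT, 2738 CPM in MCAO/R + WT replicate 1 and 1859 CPM in MCAO/R + Lrg1-/- replicate 2. Esm1 was at 776, 434 and 930 CPM in the same sham + WT libraries, at 234 CPM in that MCAO/R + WT library and at 956 CPM in that MCAO/R + Lrg1-/- library. Too few libraries held enough of these cells for a test within them.

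Without these cells, an alternative added after the data were seen, no difference of Plvap or Esm1 was called. Plvap was then at 0.363 to 2.99 CPM and Esm1 at 0 to 1.03 CPM over the 11 libraries. The log2 sham difference of Plvap was −0.95 ± 0.52 (adjusted p = 0.239), and that after MCAO/R turned from −1.35 to 1.44 ± 0.52 (adjusted p = 0.0547). The log2 sham difference of Esm1 turned from −2.19 to 0.66 ± 1.02 (adjusted p = 0.709). The calls of the other 8 genes between groups did not change without these cells. In the arterial-like cells, where it was sparse, Plvap was at 5.98, 8.42 and 10.2 CPM in MCAO/R + Lrg1-/- and at 2.37 and 0.806 CPM in MCAO/R + WT, a log2 difference of 2.30 ± 0.58 (adjusted p = 0.00956). This direction was opposite to that in the whole endothelium. Plvap also rose in the arterial-like cells after MCAO/R in Lrg1-/- mice (1.96 ± 0.55, adjusted p = 0.033, beside 9.47% of genes). The changes in the genotypes differed there by 3.52 ± 0.78 (adjusted p = 0.0381, beside 0.963%).

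**Figure D4:**
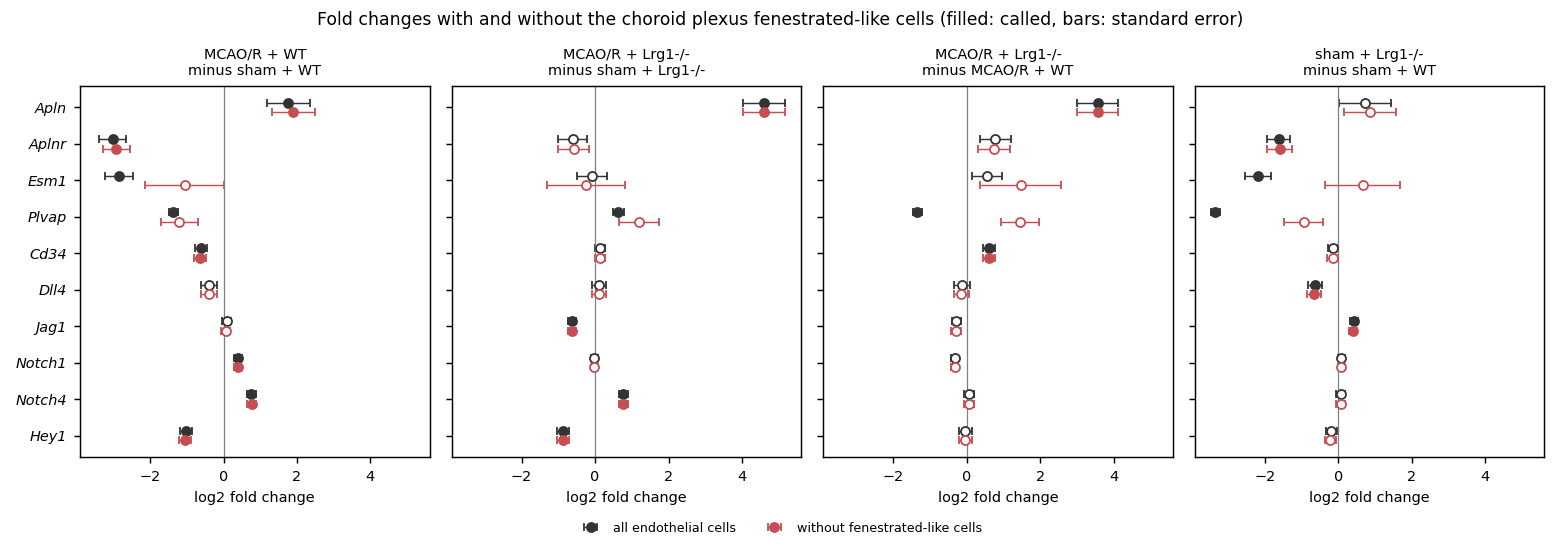
Log2 fold change of each gene in 4 comparisons of endothelial groups, with all endothelial cells (black) and without the choroid plexus fenestrated-like cells (red); bars are standard errors, and filled points are called. The points of Plvap and Esm1 move and become open, with the Plvap value after MCAO/R going from −1.35 to 1.44, while Apln stays at 3.57 in that comparison.

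Cd34 encodes a surface sialomucin of endothelium that tip cells carry in culture (chr1:194938819-194961279, plus strand). Cd34 fell after MCAO/R in WT endothelium and was higher in Lrg1-/- than in WT endothelium after MCAO/R. It was at 410, 422 and 431 CPM in sham + WT, 335, 411 and 394 CPM in sham + Lrg1-/-, 310 and 236 CPM in MCAO/R + WT, and 476, 447 and 328 CPM in MCAO/R + Lrg1-/-. Both MCAO/R + WT libraries were below all 9 others. The change in WT mice was −0.62 ± 0.16 (log2, adjusted p = 0.0139), and the difference between the MCAO/R groups was 0.61 ± 0.16 (adjusted p = 0.0139). These calls were kept in 22 of 25 and 21 of 24 alternatives, in that order. Both were lost, among others, without MCAO/R + WT replicate 2, where the values were −0.44 and 0.42, and with the set-apart cells included, where they were −0.57 and 0.46. In Lrg1-/- mice the change was 0.14 ± 0.14 (adjusted p = 0.535), and it differed from that in WT mice by 0.76 ± 0.22 (adjusted p = 0.0797). Cd34 also fell in WT mice within the capillary-like cells (−0.76 ± 0.09), the arterial-like cells (−0.63 ± 0.18, beside 11.4% of genes) and sub-clusters 0 (−0.87 ± 0.15) and 4 (−0.58 ± 0.14, beside 15.1%).

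Dll4 is the Notch ligand of tip and arterial cells (chr2:119325784-119335962, plus strand), and no change after MCAO/R was called for it. It was at 98.7, 92.7 and 102 CPM in sham + WT, 45.6, 75.7 and 67.9 CPM in sham + Lrg1-/-, 86.5 and 62.8 CPM in MCAO/R + WT, and 55, 85.7 and 59.8 CPM in MCAO/R + Lrg1-/-. The sham + WT libraries were above all others, and the other groups overlapped. The sham difference was −0.64 ± 0.20 (log2, adjusted p = 0.0399). Its call was kept in 17 of 25 alternatives. It was lost, among others, without any 1 sham + WT library, sham + Lrg1-/- replicate 1 or sham + Lrg1-/- replicate 5 (log2 −0.44 to −0.71), in the capillary-like cells only (−0.49) and with haemoglobin at most 1% of a cell's UMIs (−0.65, adjusted p = 0.0543). The log2 change after MCAO/R was −0.39 ± 0.21 in WT mice and 0.11 ± 0.20 in Lrg1-/- mice. The sham difference was also called in the arterial-like cells, where Dll4 was at 181, 182 and 199 CPM in WT and at 86.8, 133 and 103 CPM in Lrg1-/- libraries (−0.77 ± 0.22, adjusted p = 0.0296, beside 12.8% of genes). In sub-cluster 4 it was at 118 to 125 CPM against 58.4 to 72.7 CPM (−0.86 ± 0.16, adjusted p = 0.00421, beside 3.45%).

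Jag1, the other Notch ligand measured in the set (chr2:137081456-137116644, minus strand), was higher in Lrg1-/- than in WT endothelium after the sham operation and fell after MCAO/R in Lrg1-/- mice. It was at 45.7, 52.3 and 47.9 CPM in sham + WT, 53.7, 73.8 and 69.8 CPM in sham + Lrg1-/-, 51.4 and 51.8 CPM in MCAO/R + WT, and 43.0, 40.4 and 44.6 CPM in MCAO/R + Lrg1-/-. The sham + Lrg1-/- libraries were above all others and the MCAO/R + Lrg1-/- libraries below all others. The fall in Lrg1-/- mice was −0.63 ± 0.12 (log2, adjusted p = 0.00229), and no omitted library ended it. The sham difference was 0.43 ± 0.11 (adjusted p = 0.0185), a call kept in 17 of 25 alternatives. It was lost, among others, without sham + WT replicate 1 or 3 or sham + Lrg1-/- replicate 2 or 5 (0.33 to 0.42). The change after MCAO/R differed between the genotypes by −0.72 ± 0.17 (adjusted p = 0.0385), a call kept in 3 of 11 fits without a library. It was also lost with plain library totals (−0.65), with doublets kept (−0.68), without sub-cluster 2 (−0.64) and with the set-apart cells included (−0.63). With cells thinned to 1000 UMIs, none of the 3 Jag1 calls was kept, and the fall in Lrg1-/- mice was then −0.23. The summed level of 3 smooth muscle markers within the endothelial sums was 78.4 to 108 CPM in sham + WT, 179 to 241 CPM in sham + Lrg1-/-, 61.9 to 64.8 CPM in MCAO/R + WT and 72.3 to 126 CPM in MCAO/R + Lrg1-/-, and its part in the Jag1 values was not tested. In WT mice the endothelial change was 0.09 ± 0.12 (adjusted p = 0.669).

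The sub-clusters of WT mice did not all follow that endothelial value of Jag1. It rose after MCAO/R in sub-cluster 0 (0.76 ± 0.16, adjusted p = 0.00197), sub-cluster 4 (0.78 ± 0.16, adjusted p = 0.00137) and the capillary-like cells (0.41 ± 0.14, adjusted p = 0.0499). The arterial-like cells had no call in WT mice. There the levels were 83.3, 121 and 109 CPM in sham + WT, 136, 169 and 155 CPM in sham + Lrg1-/-, 111 and 106 CPM in MCAO/R + WT, and 92.7, 108 and 117 CPM in MCAO/R + Lrg1-/-. The sham + Lrg1-/- group again stood above the rest, with a sham difference of 0.57 ± 0.14 (adjusted p = 0.0143) and a fall after MCAO/R of −0.55 ± 0.16 (adjusted p = 0.0342, beside 9.47% of genes). In the venous-like cells Jag1 fell as well after MCAO/R in Lrg1-/- mice (−0.90 ± 0.19, adjusted p = 0.0044, beside 16.9%). After MCAO/R Jag1 was lower in venous-like cells of Lrg1-/- than of WT mice (−0.62 ± 0.18, adjusted p = 0.028, beside 17.2%).

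Notch1, the main Notch receptor of endothelium (chr2:26457903-26516663, minus strand), rose after MCAO/R in WT endothelium. It was at 189, 186 and 186 CPM in sham + WT, 186, 213 and 195 CPM in sham + Lrg1-/-, 248 and 242 CPM in MCAO/R + WT, and 179, 218 and 186 CPM in MCAO/R + Lrg1-/-. Both MCAO/R + WT libraries were above the other 9, which overlapped. The rise was 1.31-fold (log2 0.39 ± 0.10, adjusted p = 0.0145), and its call was kept in 19 of 25 alternatives. It was lost, among others, without sham + WT replicate 3 or either MCAO/R + WT library (log2 0.37 to 0.41), and with the set-apart cells included (0.44). After MCAO/R the level in Lrg1-/- mice was lower by a log2 value of −0.33 ± 0.10 (adjusted p = 0.0297), which is under the fold limit. It became called in 6 of 24 alternatives, among them the fits without sub-cluster 2 (−0.40, adjusted p = 0.0089), without MCAO/R + Lrg1-/- replicate 2 (−0.42) and with the set-apart cells included (−0.53). The changes in the genotypes differed by −0.42 ± 0.14 (adjusted p = 0.13). In the arterial-like cells Notch1 was at 244 to 260 CPM in sham + WT, 337 and 405 CPM in MCAO/R + WT and 239 to 277 CPM in MCAO/R + Lrg1-/-. There both the rise in WT mice (0.59 ± 0.13, adjusted p = 0.00595) and the lower level in Lrg1-/- mice after MCAO/R (−0.55 ± 0.14, adjusted p = 0.00939) were called. In sub-cluster 0 the rise in WT mice was 0.70 ± 0.11, and the changes in the genotypes differed by −0.78 ± 0.15 (adjusted p = 0.00825, beside 3.2% of genes). Notch1 was also called higher in that sub-cluster in sham + Lrg1-/- than in sham + WT mice (0.46 ± 0.10, adjusted p = 0.0096, beside 9.12%). The difference between the changes thus includes a difference between the sham groups.

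Notch4, a receptor largely restricted to endothelium (chr17:34564268-34588503, plus strand), rose after MCAO/R in both genotypes. It was at 41.5, 46.7 and 48.1 CPM in sham + WT, 41.8, 56.2 and 43.8 CPM in sham + Lrg1-/-, 69.4 and 84.5 CPM in MCAO/R + WT, and 85.9, 78.7 and 77.3 CPM in MCAO/R + Lrg1-/-. All 5 MCAO/R libraries were above all 6 sham libraries, and the genotypes overlapped within each. The rise was 1.69-fold in WT (log2 0.76 ± 0.13, adjusted p = 0.00102) and 1.70-fold in Lrg1-/- mice (0.76 ± 0.12, adjusted p = 0.00106). The difference between the rises was 0.00 ± 0.18 (adjusted p = 0.996). Both calls were kept under every alternative that could be fitted. It also rose in WT mice in sub-clusters 0 (1.32 ± 0.15) and 4 (0.84 ± 0.16) and in the capillary-like (0.93 ± 0.12), arterial-like (0.59 ± 0.12) and venous-like cells (1.02 ± 0.20). In Lrg1-/- mice it rose in sub-clusters 0 (0.91 ± 0.15) and 4 (0.68 ± 0.19) and in the arterial-like (0.54 ± 0.13) and venous-like cells (1.12 ± 0.23), while the capillary-like cells were too few there for a fit.

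Hey1, a transcriptional repressor induced by Notch (chr3:8663359-8667256, minus strand), fell after MCAO/R in both genotypes. It was at 48.1, 55.8 and 45.9 CPM in sham + WT, 37.5, 53.2 and 40.0 CPM in sham + Lrg1-/-, 22.5 and 26.9 CPM in MCAO/R + WT, and 26.6, 25.6 and 18.7 CPM in MCAO/R + Lrg1-/-. No MCAO/R library reached a sham library. The fall was 2.03-fold in WT (log2 −1.02 ± 0.17, adjusted p = 8.06e-04) and 1.83-fold in Lrg1-/- mice (−0.87 ± 0.16, adjusted p = 0.00228), kept without each library in turn. With cells thinned to 1000 UMIs the call in Lrg1-/- mice was lost (−0.66, adjusted p = 0.0634). The falls differed by 0.15 ± 0.23 (adjusted p = 0.798). Within the arterial-like cells Hey1 fell from 141 to 181 CPM in sham + WT to 86.5 and 105 CPM in MCAO/R + WT (−0.67 ± 0.17, adjusted p = 0.0134), and from 99.0 to 138 CPM to 65.5 to 90.7 CPM in Lrg1-/- mice (−0.67 ± 0.18, adjusted p = 0.0231). Hey1 fell as well in sub-cluster 4 of WT mice (−0.73 ± 0.22, adjusted p = 0.029, beside 15.1% of genes). The capillary-like cells of WT mice went the other way, from 14.3 to 16.8 CPM up to 21.6 and 24.2 CPM (0.54 ± 0.15, adjusted p = 0.0165). The arterial-like cells, which held the largest share of Hey1 UMIs in both WT groups, made up 12.921% to 15.669% of the endothelial cells in sham + WT and 7.439% to 9.284% in MCAO/R + WT. In Lrg1-/- mice they made up 13.59% to 20.507% in the sham group and 8.931% to 11.173% after MCAO/R. Sub-cluster 4 went from 15.881% to 17.165% in sham + WT to 5.836% to 6.299% in MCAO/R + WT. In Lrg1-/- mice it went from 8.6% to 10.348% to 6.175% to 8.101%. The part of these shifts in the endothelial value was not tested.

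Around these genes, 46 of 48 other genes of the Notch pathway and 28 of 29 other genes of a tip cell list were tested in endothelium. After MCAO/R in WT mice 15 Notch pathway genes were called, 7 higher and 8 lower, beside 21.6% of all genes tested, with a median log2 change of 0.03 over the list. Nrarp, a feedback inhibitor of Notch, rose by 0.75 ± 0.21 (log2) and the gamma-secretase gene Psen2 by 0.47 ± 0.14. The arterial ephrin ligand gene Efnb2 fell by 0.86 ± 0.13 (adjusted p = 4.28e-04), the Notch glycosyltransferase gene Lfng by 1.05 ± 0.20 and Adam10, whose product cleaves Notch, by 0.57 ± 0.10. In Lrg1-/- mice 8 were called, 3 higher and 5 lower, beside 22.2% of all genes, with a median of −0.06. Nrarp rose by 1.29 ± 0.22, and the Notch target Hes1 fell by 1.17 ± 0.19, Lfng by 1.08 ± 0.20 and Efnb2 by 0.64 ± 0.12. Between the genotypes 14 were called after the sham operation (6 higher, 8 lower in Lrg1-/-), beside 15.7% of all genes, and 13 after MCAO/R (6 higher, 7 lower), beside 26.4%. Numb, an inhibitor of Notch, was lower in Lrg1-/- in both (log2 −0.72 ± 0.10 and −0.49 ± 0.10), as were Mib1, which activates the ligands (−0.62 ± 0.11 and −0.57 ± 0.12), and the coactivator gene Maml3 (−0.94 ± 0.13 and −0.65 ± 0.14). Among those higher in Lrg1-/- were the Notch targets Hes1 (0.62 ± 0.19) and Hey2 (1.11 ± 0.33) after the sham operation, and the arterial connexin genes Gja4 (0.98 ± 0.28) and Gja5 (1.43 ± 0.50) after MCAO/R. The change after MCAO/R differed between the genotypes for 0 of the 46 genes by edgeR, beside 3.22% of all genes, and for 2 by DESeq2, and 10 had an unadjusted p under 0.05 in edgeR.

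Of the tip cell list 19 genes were called after MCAO/R in WT mice, 10 higher and 9 lower, beside 21.6% of all genes, with a median log2 change of 0.18. Angpt2, the destabilising ligand of Tie2, rose by 2.63 ± 0.30 (adjusted p = 5.17e-05), Igfbp3 by 2.13 ± 0.34 and the basement membrane collagen gene Col4a2 by 1.41 ± 0.17. The vascular endothelial growth factor (VEGF) receptor gene Kdr fell by 1.17 ± 0.19, the coreceptor gene Nrp1 by 1.58 ± 0.18 and the laminin gene Lama4 by 1.22 ± 0.13. In Lrg1-/- mice 16 were called, 12 higher and 4 lower, beside 22.2%, with a median of 0.49. Angpt2 rose by 2.77 ± 0.33, Igfbp3 by 2.78 ± 0.34 and Nid1 by 1.67 ± 0.20, and Kdr fell by 0.70 on the log2 scale and the pericyte-recruiting Pdgfb by 0.89 ± 0.10. After MCAO/R 9 were called between the genotypes, 7 higher and 2 lower in Lrg1-/-, beside 26.4% of all genes, among them Lxn (1.25 ± 0.17), Lama4 (0.87 ± 0.13) and the endothelial adhesion gene Mcam (1.68 ± 0.36), with Rgcc lower (−1.11 ± 0.16). After the sham operation 3 were called, all lower in Lrg1-/-, beside 15.7% of all genes, namely Nrp1 (−0.67 ± 0.16), Lama4 (−0.47 ± 0.12) and Ramp3 (−1.0 ± 0.27). The change after MCAO/R differed between the genotypes for 4 tip cell genes, all with a larger log2 value in Lrg1-/-, beside 3.22% of all genes, namely Lama4 (1.34 ± 0.18), Lxn (1.21 ± 0.22), Nrp1 (1.24 ± 0.24) and Trp53i11 (1.95 ± 0.42).

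Over the 7 analysed endothelial sub-clusters that could be fitted, without those set apart, 48 of 205 tests of the 10 genes were called (29 higher, 19 lower; 23.4%), beside 9.99% of all tests of all genes. In the 14 other cell types that could be fitted, 32 of 364 were called (27 higher, 5 lower; 8.79%), beside 7.71% of all tests. Microglia held 10 of these 32 calls, but 12.7% to 28.5% of all genes were called there in each comparison. Astrocytes, ciliated ependymal cells, fibroblasts, neutrophils and red blood cells held none, where at most 5.21% of all genes were called in a comparison. The number of calls in a type is therefore no result about the 10 genes. Oligodendrocytes held 7, beside 0.779% to 30.6% of all genes, and the summed level of 8 endothelial markers in them was 248 to 443 CPM in sham + WT and 512 to 1861 CPM in sham + Lrg1-/-, and 260 to 340 CPM in MCAO/R + WT and 562 to 745 CPM in MCAO/R + Lrg1-/-. The part of endothelial RNA in those calls was not tested.

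In microglia, the resident macrophages of the brain, Notch4 rose after MCAO/R, and more in WT than in Lrg1-/- mice. It was at 3.07, 2.93 and 3.58 CPM in sham + WT, 3.0, 4.18 and 6.68 CPM in sham + Lrg1-/-, 22.0 and 22.5 CPM in MCAO/R + WT, and 8.21, 11.7 and 10.1 CPM in MCAO/R + Lrg1-/-. The MCAO/R groups did not overlap each other or the sham groups. The rise was 2.76 ± 0.21 in WT (log2, adjusted p = 1.03e-06, beside 21.2% of genes) and 1.32 ± 0.26 in Lrg1-/- mice (adjusted p = 0.00185, beside 28.5%). After MCAO/R the level was lower in Lrg1-/- microglia (−1.19 ± 0.21, adjusted p = 0.00119, beside 28.1%), and the rises differed by −1.44 ± 0.34 (adjusted p = 0.0156, beside 12.7%). The share of microglia with a Notch4 UMI was 2.44% to 3.69% in sham + WT, 1.69% to 4.78% in sham + Lrg1-/-, 17.8% to 19.1% in MCAO/R + WT and 6.29% to 9.52% in MCAO/R + Lrg1-/-. After thinning to 1000 UMIs the same order was 0.318% to 0.383%, 0.282% to 0.683%, 1.91% to 2.30% and 0.776% to 1.19%. The summed endothelial markers in microglia were 236 to 314 CPM in sham + WT, 250 to 414 CPM in sham + Lrg1-/-, 293 to 339 CPM in MCAO/R + WT and 126 to 466 CPM in MCAO/R + Lrg1-/-. Dll4, abundant in endothelium, was at 1.31 to 1.56 CPM in sham + WT and 1.25 and 1.67 CPM in MCAO/R + WT microglia. Notch4 also rose in pericytes, the mural cells of capillaries, in WT mice, from 18.5, 13.2 and 12 CPM to 39.4 and 51.7 CPM (1.66 ± 0.33, adjusted p = 0.0101, beside 3.42%), where the summed endothelial markers were 464 to 647 CPM and 596 to 726 CPM. The part of endothelial RNA in the Notch4 calls of microglia and pericytes was not tested.

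Jag1 rose after MCAO/R in the macrophages of WT mice. In border-associated macrophages it was at 10.3, 9.93 and 4.0 CPM in sham + WT, 12.1, 22.2 and 16.6 CPM in sham + Lrg1-/-, 52.4 and 34.9 CPM in MCAO/R + WT, and 29.3, 49.6 and 72.3 CPM in MCAO/R + Lrg1-/-. All MCAO/R libraries were above all sham libraries. The rise was 2.46 ± 0.38 in WT (log2, adjusted p = 8.39e-04, beside 8.64% of genes) and 1.61 ± 0.41 in Lrg1-/- mice (adjusted p = 0.0173, beside 12.7%). The summed endothelial markers in these cells were 290 to 357 CPM in sham + WT and 297 to 378 CPM in MCAO/R + WT. They were 319 to 722 CPM in sham + Lrg1-/- and 195 to 1534 CPM in MCAO/R + Lrg1-/-, and their part in these calls was not tested. In monocytes or monocyte-derived macrophages Jag1 was at 8.23, 3.66 and 7.62 CPM in sham + WT and at 49.1 and 24.9 CPM in MCAO/R + WT (2.50 ± 0.57, adjusted p = 0.0273, beside 3.42%). In microglia it was at 1.22 to 1.77 CPM in sham + WT, 6.16 to 6.68 CPM in sham + Lrg1-/-, 5.4 and 4.18 CPM in MCAO/R + WT and 8.64 to 10.5 CPM in MCAO/R + Lrg1-/-. There Jag1 rose in WT mice (1.56 ± 0.22, adjusted p = 2.13e-04) and was higher in Lrg1-/- than in WT mice after the sham operation (1.86 ± 0.24, adjusted p = 9.73e-05, beside 28.3%) and after MCAO/R (0.92 ± 0.23, adjusted p = 0.009). The sham difference of Jag1 was called with the same sign in other classes. These were B cells (3.40 ± 0.64, beside 25.2%), choroid plexus epithelium (2.32 ± 0.49, beside 21%) and oligodendrocytes (2.14 ± 0.49, beside 15.4%). In oligodendrocytes the difference after MCAO/R was called too (2.21 ± 0.53, beside 30.6%). The part of RNA from other cells in these Jag1 calls, in microglia as well, was not tested. Apln was called higher in Lrg1-/- than in WT mice after MCAO/R also in microglia (1.53 ± 0.50, adjusted p = 0.0343) and vascular smooth muscle (3.09 ± 0.68, adjusted p = 0.0172), at 1.30 to 3.83 CPM and 2.19 to 9.09 CPM. The summed endothelial markers in vascular smooth muscle were 395 to 446 CPM in MCAO/R + WT and 571 to 1250 CPM in MCAO/R + Lrg1-/-, and their part in the Apln call was not tested. In choroid plexus epithelium, where it was also called (8.26 ± 2.38, adjusted p = 0.0281, beside 21.7%), Apln was at 3.58 to 7.74 CPM in MCAO/R + Lrg1-/- and at 0 in both MCAO/R + WT libraries. The MCAO/R + WT libraries held only 111 and 26 of these cells, against 1525 to 2084 in the MCAO/R + Lrg1-/- libraries. A count of 0 in so few cells sets a loose limit, and the size of that difference is uncertain.

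**Figure D5:**
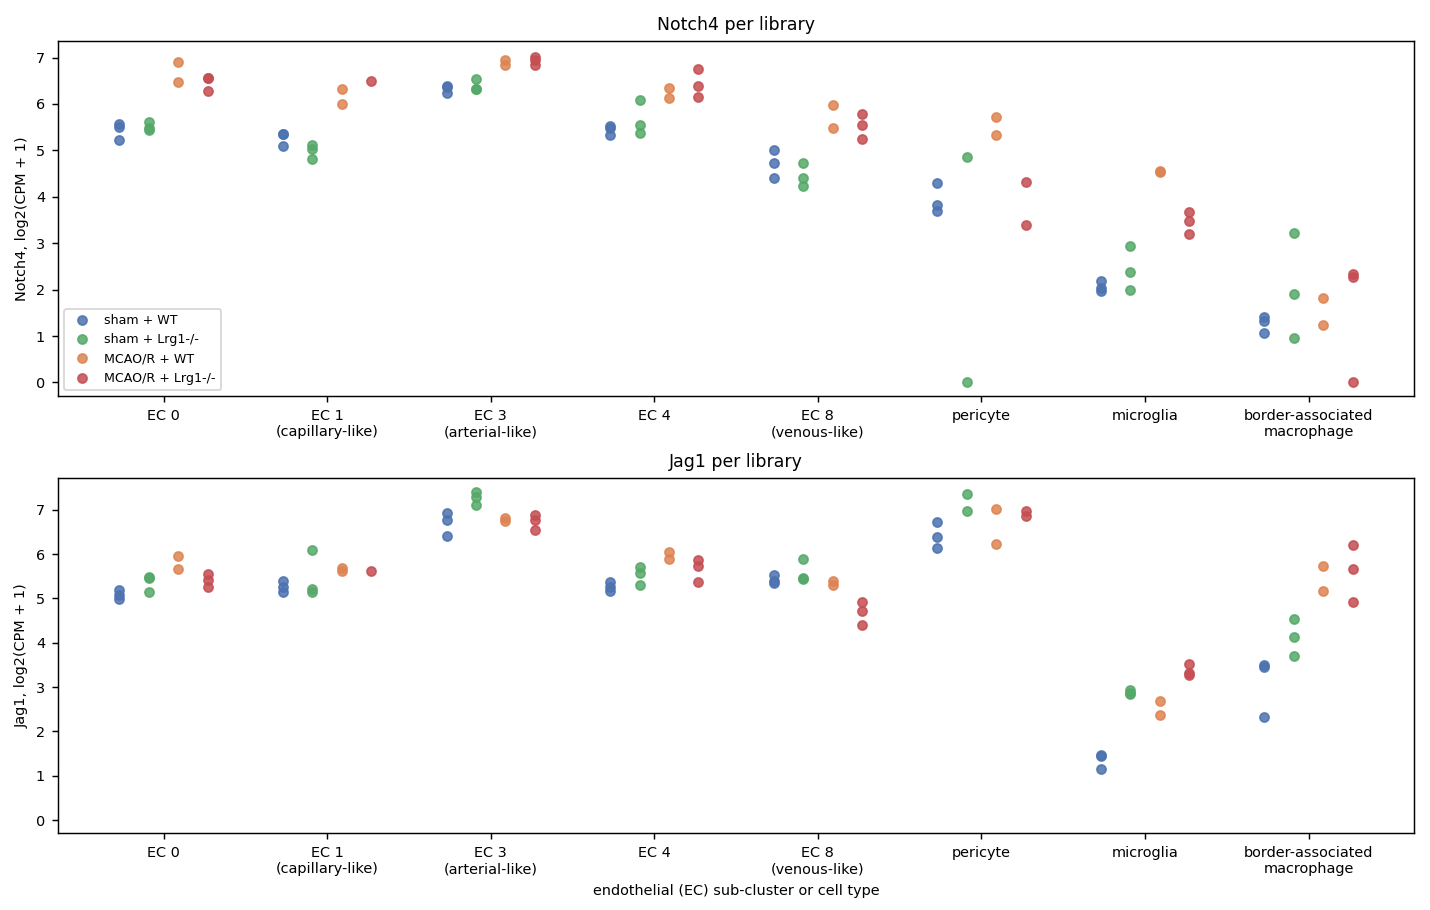
Notch4 (top) and Jag1 (bottom) per library, as log2(CPM + 1), in 5 endothelial (EC) sub-clusters, pericytes, microglia and border-associated macrophages, where a library has at least 20 cells of the type; colours are the 4 groups. Notch4 in microglia was at 22.0 and 22.5 CPM in the MCAO/R + WT libraries and at 8.21 to 11.7 CPM in the MCAO/R + Lrg1-/- libraries, and Jag1 in border-associated macrophages was at 29.3 to 72.3 CPM in the MCAO/R libraries.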

How the data were processed

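Raw UMI counts per gene and cell were deposited by the authors as filtered matrices of 11 droplet libraries, made with Cell Ranger 7.0.1 per the file headers. The submitters' processing notes name STAR and mm10. Cells with more than 500 genes, more than 1000 UMIs and under 25% mitochondrial UMIs were kept, and the 6% of cells with the highest doublet scores in each library were removed. Cells were clustered in Python 3.11.15 on 2000 variable genes without the 10 genes and Lrg1 (15 principal components, 3 neighbours per library, Leiden resolution 1.0 and 0.6 for sub-clusters, leidenalg 0.10.2). A class was named where at least 3 of its markers passed and no other class passed more. The next class also had to lie at least 1.0 lower in mean log2 fold. Clusters of few UMIs per cell without a marker of their class among their leading genes were left unnamed. Differences from the study may come from rebuilt names.

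Counts were summed per library and cell type, with at least 20 cells, since mice and not cells are the replicates. All 4 groups were fitted together by edgeR 4.0.16 in R 4.3.3 (TMM scaling, filterByExpr, quasi-likelihood test, Benjamini-Hochberg adjustment over all genes tested). A gene was called at an adjusted p under 0.05 and an absolute natural-log fold change over 0.25, the study's fold limit. Errors of fold changes are standard errors, endothelial levels are CPM after TMM scaling, and levels in sub-clusters and other types are plain CPM. The steps were tested on simulated data for MCAO/R + WT against sham + WT. There 53% of 2-fold and 99% of 4-fold changes were called, and 5% of the calls were false. A gene that was not called may therefore still have changed. The simulation gave every gene the same spread and changed only 200 genes with over 20 expected UMIs. Its rates need not hold for sparse genes such as Aplnr and Esm1 or where many genes change. Limits behind a count of 0 use 3 counts, and they cover counting error only. No test could be fitted in endothelial sub-cluster 9, NK cells, oligodendrocyte precursors and T cells. DESeq2 1.42.0, other scalings, filters and cell choices, and the omission of each library were the alternatives.

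The 10 genes and the gene lists were chosen with earlier results of these data known. Named were all 10 genes, the called list genes with up to 5 of the smallest adjusted p per direction and comparison, Lrg1, and for each of the 10 genes the gene with the highest Pearson r of log2(CPM + 1) over cell types. Mixed sub-clusters were set apart, and the fits without the choroid plexus fenestrated-like cells and without sub-cluster 2 were added, after seeing the data. Gene positions are from GENCODE M21 (GRCm38).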

Additional observations from a re-analysis of the deposited data

Results flagged for a closer look

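The change after MCAO/R differed between the genotypes, by the test of the difference itself, for 4 of the 10 genes in endothelial cells, beside 3.22% of all genes tested. The log2 change in Lrg1-/- mice minus that in WT mice was 2.41 for Aplnr, 2.0 for Plvap, 2.75 for Esm1 and −0.72 for Jag1 (edgeR quasi-likelihood test). Without the choroid plexus fenestrated-like cells the calls of Plvap (adjusted p = 0.104) and Esm1 (adjusted p = 0.838) were lost. In the arterial-like cells alone, where Plvap was sparse, its difference was called (log2 3.52 ± 0.78, adjusted p = 0.0381). Without 1 library the Jag1 call was kept in 3 of 11 fits, the Aplnr call in 6, the Esm1 call in 8 and the Plvap call in all 11. With the sub-clusters that were set apart included 0 of the 4 calls were kept, and by the per-cell marker rule 1 was, that of Jag1.

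Signals also appeared in the endothelial sub-clusters that were set apart because markers of another class passed in them. In sub-cluster 5, which also passed neutrophil markers, Notch4 was higher in MCAO/R + WT than in sham + WT libraries by a log2 value of 1.22 ± 0.32 (adjusted p = 0.0481). Apln was higher there in MCAO/R + Lrg1-/- than in MCAO/R + WT libraries by 4.13 ± 0.97 (adjusted p = 0.0389). In sub-cluster 6, which also passed choroid plexus epithelial markers, Apln was higher in MCAO/R + Lrg1-/- than in sham + Lrg1-/- libraries by 3.44 ± 0.52 (adjusted p = 0.00256).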

How the results depend on the processing

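The number of the 10 genes called in endothelial cells depended on several choices. After MCAO/R in Lrg1-/- mice it was 2 instead of 5 with cells thinned to 1000 UMIs. Between the sham groups it was 2 instead of 5 with thinned cells, 1 in capillary-like cells only, 3 with haemoglobin at most 1% of a cell's UMIs, 3 without the choroid plexus fenestrated-like cells and 3 to 5 without 1 library. For the difference between the changes it was 2 instead of 4 with thinned cells, 1 with the per-cell marker rule, 0 with the mixed sub-clusters, 2 without the fenestrated-like cells and 1 to 5 without 1 library. Without 1 library the Notch pathway genes called numbered 7 to 16 after MCAO/R in WT, 6 to 14 after MCAO/R in Lrg1-/-, 5 to 14 between the MCAO/R groups and 7 to 15 between the sham groups, the tip cell genes called between the sham groups 1 to 7 (7 with no low-count filter), and the calls in other cell types 18 to 35. The direction of a called change turned for Apln after MCAO/R in WT (−0.54 in capillary-like cells only, −0.42 without sub-cluster 2), Esm1 between the sham groups (0.66) and Plvap between the MCAO/R groups (1.44), both without the fenestrated-like cells, and Hey1 after MCAO/R in WT (0.54 in capillary-like cells only). The cause was not tested. Of the fold changes of the 10 genes without 1 library, 511 stayed called or not called, 4 became called and 35 lost the call; under other alternatives these were 594, 15 and 49, and 5 called changes turned. Some changes that were not called also changed sign, among them Apln between the sham groups (0.73, and −1.03 without sub-cluster 2). Capillary-like cells only could not be fitted for MCAO/R + Lrg1-/-.

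The labels do not say that the numbers in the sample titles pair the samples. Correlations of deviations from the group means were −0.299 to 0.0475 for 13 pairs with the same number and −0.121 to 0.299 for 32 pairs with different numbers. The 2 MCAO/R + WT libraries deviate from their mean by opposite amounts, so −0.299 and 0.299 are 1 value with its sign turned. These ranges therefore cannot decide whether the numbers pair the samples. With the number as a replicate block, the 10 genes had 5 calls after MCAO/R in WT, 3 between the sham groups and 1 for the difference between the changes; the Notch pathway list had 6 after MCAO/R in WT and 6 between the sham groups, and the tip cell list 0 between the sham groups. Over all genes, calls went from 3485 to 1966 after MCAO/R in WT, 3582 to 2667 in Lrg1-/-, 4262 to 2937 between the MCAO/R groups, 2530 to 844 between the sham groups and 519 to 68 for the difference between the changes.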
